A study of Homo sapiens with 6 samples.

Results

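Open chromatin at the ends of noncoding RNA genes was examined in wild-type hTERT-RPE1 cells, a human retinal pigment epithelial line immortalised with telomerase. The regions were chosen by position alone. Each joined overlapping peaks of the R1 and the R2 list on an autosome, held at least 1 peak of each, lay within 1 kb of either end of a noncoding RNA gene and lay more than 5 kb from any end of a protein-coding gene. Of 119583 shared regions on the 22 autosomes, 5300 met this rule (4.43%). The assay was ATAC-seq, which reads open chromatin as the DNA that the enzyme Tn5 can reach and tag in nuclei. The titles sort the 6 libraries into R1 and R2, 3 in each, and every library has the same cell line and a wild-type genotype with no treatment named. What distinguishes R1 from R2, and whether the libraries came from separate cultures, is not in the labels. Each set was read from 1 merged peak list, so there is no spread between replicates, no test was possible, and every difference below is a description of these pooled lists.

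Noncoding RNA genes make RNAs that are not translated. Long noncoding RNA (lncRNA) genes and most microRNA (miRNA) host genes are transcribed by RNA polymerase II from promoters much like those of protein-coding genes. The small nuclear RNA (snRNA) genes of the spliceosome mostly use RNA polymerase II with a promoter of their own kind, while transfer RNA (tRNA), 5S ribosomal RNA, Y RNA and vault RNA genes are served by RNA polymerase III. Most small nucleolar RNAs (snoRNAs) and many miRNAs are instead cut out of the introns or exons of longer transcripts, so their own ends need not be promoters. An open region at a gene end shows accessible DNA there and does not show that the gene is transcribed.

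R1 had 143492 peaks and R2 had 134940, and both lists had a median pileup of 72 reads or fragments over the summit. Fold is the authors' enrichment of a peak over its local background, with list medians of 5.03 in R1 and 5.11 in R2. Among markers of the labelled cell type, 7 of 11 retinal pigment epithelium genes had a shared region at a gene end, and RPE65, TYR, LRAT and TTR, which serve the visual cycle, pigment synthesis and retinol transport, had none. All 5 mesenchymal markers had one, as did 3 of 4 epithelial markers, without CDH1. The counts were 2 of 4 for blood, 0 of 2 for endothelium and 2 of 3 for neurons, where SYP, on the X chromosome, was not assessed. Over all protein-coding genes on autosomes the share was 75.1%, so these small counts do not tell cell types apart.

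The promoters below belong to lncRNA genes whose start lay under a strong region, and they show the 2 kinds of start described further on, poor and rich in CpG. Each runs from 250 bases before to 50 bases after the RefSeq start on GRCh38.p14, 5′ to 3′ on the gene's strand. Capitals mark letters of a motif, AP-1 (TGANTCA) in the windows of LOC107986749 and FANK1-AS1, SP/KLF (GGGCGG) in LINC01023 and ETS (CCGGAAGT) in LOC101929566. The windows were chosen after their values were seen.
LOC107986749: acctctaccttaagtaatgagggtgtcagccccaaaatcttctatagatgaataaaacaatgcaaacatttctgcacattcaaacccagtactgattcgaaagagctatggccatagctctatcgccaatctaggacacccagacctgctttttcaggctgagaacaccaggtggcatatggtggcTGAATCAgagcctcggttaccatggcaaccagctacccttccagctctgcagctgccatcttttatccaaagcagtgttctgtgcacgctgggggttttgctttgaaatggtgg
FANK1-AS1: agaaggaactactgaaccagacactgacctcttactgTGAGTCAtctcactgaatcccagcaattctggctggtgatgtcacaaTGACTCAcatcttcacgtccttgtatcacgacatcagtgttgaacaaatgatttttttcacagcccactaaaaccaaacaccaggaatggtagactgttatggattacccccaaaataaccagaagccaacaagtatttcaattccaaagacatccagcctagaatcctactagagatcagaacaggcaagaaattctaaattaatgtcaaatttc
LINC01023: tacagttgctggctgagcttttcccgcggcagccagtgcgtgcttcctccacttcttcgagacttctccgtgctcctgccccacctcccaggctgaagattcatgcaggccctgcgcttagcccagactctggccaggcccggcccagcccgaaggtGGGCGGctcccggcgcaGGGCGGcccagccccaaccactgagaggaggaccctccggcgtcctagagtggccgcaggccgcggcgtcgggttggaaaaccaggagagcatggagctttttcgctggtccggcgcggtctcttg
LOC101929566: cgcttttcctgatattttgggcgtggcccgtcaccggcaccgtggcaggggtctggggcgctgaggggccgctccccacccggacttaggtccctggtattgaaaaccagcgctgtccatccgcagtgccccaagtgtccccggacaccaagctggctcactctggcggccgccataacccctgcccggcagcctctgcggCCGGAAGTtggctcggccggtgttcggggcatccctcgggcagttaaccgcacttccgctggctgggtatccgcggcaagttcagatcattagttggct

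LOC107986749 (chr7:138161523-138161822, plus strand) and FANK1-AS1 (chr10:125973224-125973523, minus strand) are poor in CpG, with 4 and 2 CpG and a G+C content of 47.3% and 40.3%. LINC01023 (chr5:108728212-108728511, minus strand) and LOC101929566 (chr16:2868155-2868454, minus strand) have 23 and 24 CpG and a G+C content of 67.0% and 65.3%. The R1 and R2 summits lay 40 and 41 bp from the AP-1 letters of LOC107986749, and 20 and 21 bp from the nearer of both AP-1 matches in FANK1-AS1. The regions over these 4 starts had folds of 13.8, 11.9, 13.2 and 14.6 in R1 and of 13.6, 12.1, 12.7 and 15.02 in R2, in the order of the lines above. All of them lay far above the median of their list.

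The mature miRNAs below, from RefSeq on the same build, come from genes with an end within 1 kb of a region of this kind. Of the genes shown, only MIR155 had its hairpin inside the region. Capitals mark the seed, bases 2 to 8, which pairs with target messenger RNAs. The arms of the miR-302 cluster are shown because 1 region served all of its genes, a choice made after the values were seen.
hsa-miR-199a-3p: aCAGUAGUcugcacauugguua
hsa-miR-155-5p: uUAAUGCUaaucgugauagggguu
hsa-miR-193b-3p: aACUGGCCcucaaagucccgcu
hsa-miR-133a-3p: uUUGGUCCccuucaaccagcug
hsa-miR-9-5p: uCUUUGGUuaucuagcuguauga
hsa-miR-128-3p: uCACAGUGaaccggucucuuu
hsa-miR-96-5p: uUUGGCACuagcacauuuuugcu
hsa-miR-183-5p: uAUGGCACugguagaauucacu
hsa-miR-302a-3p: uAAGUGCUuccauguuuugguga
hsa-miR-302b-3p: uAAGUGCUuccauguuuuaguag
hsa-miR-302c-3p: uAAGUGCUuccauguuucagugg
hsa-miR-302d-3p: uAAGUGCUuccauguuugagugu

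The miR-302 arms share the seed AAGUGCU, and none of the other seeds shown is shared. miR-199a, miR-155 and miR-193b are known from mesenchymal, immune and growing cells, miR-133a from muscle, miR-9 and miR-128 from neurons, miR-96 and miR-183 from sensory epithelia, and the miR-302 family from pluripotent cells. The values of their regions are given with the miRNA genes below.

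Regions at noncoding gene ends stood between the 2 kinds of open chromatin they were set beside. Their median width was 930.5 bp, against 1376 bp for the 15839 shared regions within 1 kb of a protein-coding gene end and 782 bp for the 86802 other regions more than 5 kb from one. Any part of a region could meet the 1 kb limit, which favours wide regions. With both summits required within it, the median width at noncoding gene ends was 907 bp. Their median pileup was 105 in R1 and 99 in R2, against 241 and 257 at protein-coding gene ends and 74 and 69 in the other regions. Fold separated the classes much less than pileup did, and the local background was higher where the pileup was. The median fold at noncoding gene ends was 6.12 in R1 and 5.91 in R2, against 6.65 and 6.70 at protein-coding gene ends and 5.71 and 5.46 in the other regions. The median background in R1 was 14.7, against 33.1 and 10.6 in the same order. The quartile ranges at noncoding gene ends overlapped those of both other classes in each of these measures.

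**Figure D1:**
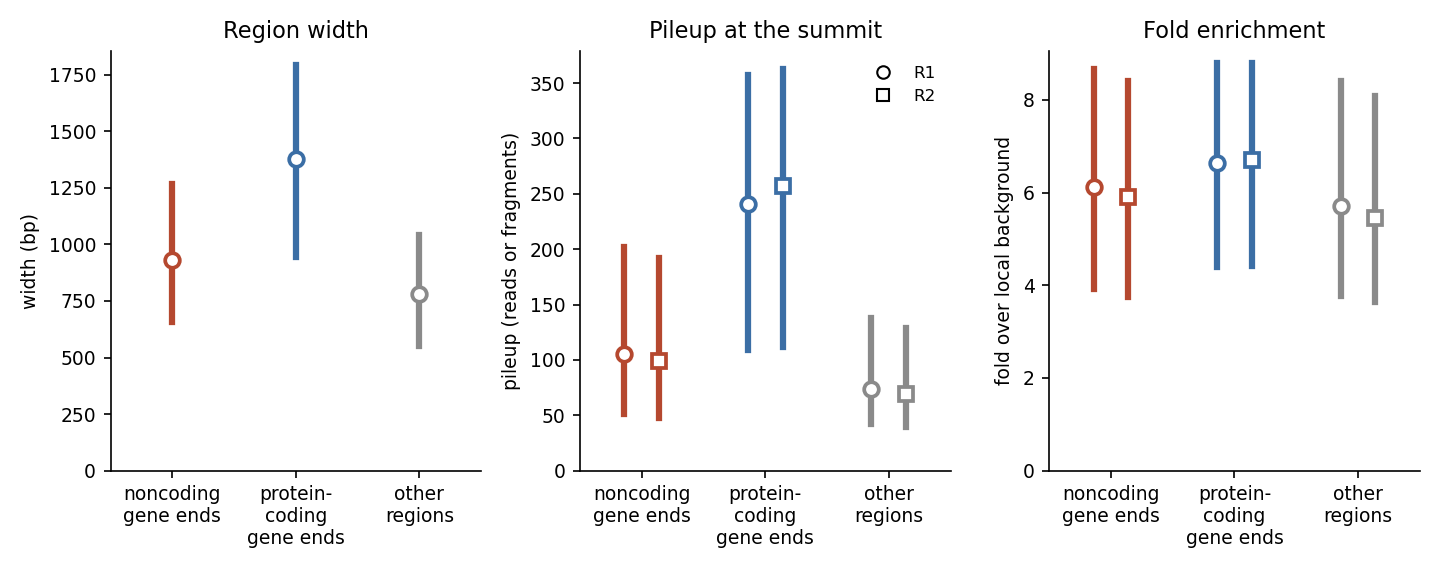
Width (bp), pileup at the summit (reads or fragments) and fold over local background of shared autosomal regions, as medians (points) and quartile ranges (bars), for regions at noncoding gene ends, regions at protein-coding gene ends and other regions more than 5 kb from protein-coding gene ends. Circles are R1 (and the joined width), squares R2; the noncoding gene ends, at a median width of 930.5 bp, lie between the other classes.

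In R1, 3306 of the 5300 regions (62.4%) had a fold at or above the list median, against 58.1% of all shared regions. In R2 it was 3136 (59.2%), against 54.8%. These shares are close to the background, and the members' folds covered almost the whole range, in R1 from 1.46 to 17.3 and in R2 from 1.49 to 18.1. Their share grew slowly with strength, from 3.91% of the weakest 10% of shared regions by R1 fold to 5.04% of the strongest 10%, and from 3.96% to 5.25% by R2 fold. It grew more with width, which the rule itself favours. A region qualified if any part of it lay within 1 kb of a gene end, so wider regions met that limit more readily. The widest 20% of shared regions held 26.2% of the members and the narrowest 20% held 15.1%. In 132 members (2.49%) more than 1 peak of a list was joined, against 2.57% of all shared regions. The median gap between the R1 and R2 summits was 38 bp, against 37 bp over all shared regions.

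The nearest noncoding gene was a lncRNA gene for 4738 regions, a miRNA gene for 234, a tRNA gene for 148, a snoRNA gene for 112, an snRNA gene for 33 and an rRNA gene for 14. The other 21 lay at genes of rarer types, 4 each of Y RNA, antisense RNA, misc_RNA and ncRNA, 3 of vault RNA and 2 of scRNA, the class of the signal recognition particle RNA. Most regions, 4956, lay near 1 noncoding gene, 314 near 2 and 30 near 3 or more. At tRNA genes the regions were wide (median 1193.5 bp), with median folds of 6.86 in R1 and 6.69 in R2. At snRNA genes they were wider still (1449 bp), with median folds of 7.36 and 7.51 and median pileups of 334 and 301. At miRNA genes the median folds were 5.05 and 4.70, near the list medians but under the 5.71 and 5.52 of all shared regions.

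Seen from the genes, 8491 of 21492 noncoding RNA genes on autosomes (39.5%) had a shared region within 1 kb of either end, against 14355 of 19126 protein-coding genes (75.1%). Many noncoding genes start beside a protein-coding gene and share its region. Among the 15129 noncoding genes with both ends more than 5 kb from any protein-coding gene end, the count was 4372 (28.9%). Of the other noncoding genes, 479 had a peak near a gene end in R1 only, 253 in R2 only, 36 in both lists without overlap of the peaks, and 12233 in neither list. The members themselves touched 4944 noncoding genes, of which 4250 had 1 such region, 652 had 2, 41 had 3 and 1 had 4.

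Accessibility differed between gene types and followed the way lncRNA genes are named. Among genes more than 5 kb from protein-coding gene ends, 198 of 330 tRNA genes (60.0%), 39 of 131 snRNA genes (29.8%), 262 of 1240 miRNA genes (21.1%) and 129 of 854 snoRNA genes (15.1%) had a shared region. Among lncRNA genes at the same distance it was 3709 of 12457 (29.8%). Median lengths were 73 bp for these tRNA genes, 120 bp for snRNA, 81 bp for miRNA, 104 bp for snoRNA and 9817 bp for lncRNA genes. At the short genes the 1 kb reaches of both ends overlap, while long genes offer 2 separate stretches. Shares of short and long genes, here and elsewhere, are therefore not matched for the DNA searched. Divergent transcripts, named for the neighbour they run away from, reached 18 of 25 (72.0%), and host genes of small RNAs 32 of 59 (54.2%). Antisense genes reached 375 of 887 (42.3%), LINC genes, which lie between protein-coding genes, 617 of 1986 (31.1%), and genes with only a LOC number 2472 of 9021 (27.4%). Longer lncRNA genes did not have a region more often. In 4 equal groups from the shortest to the longest genes the shares were 32.3%, 31.1%, 29.1% and 26.7%.

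**Figure D2:**
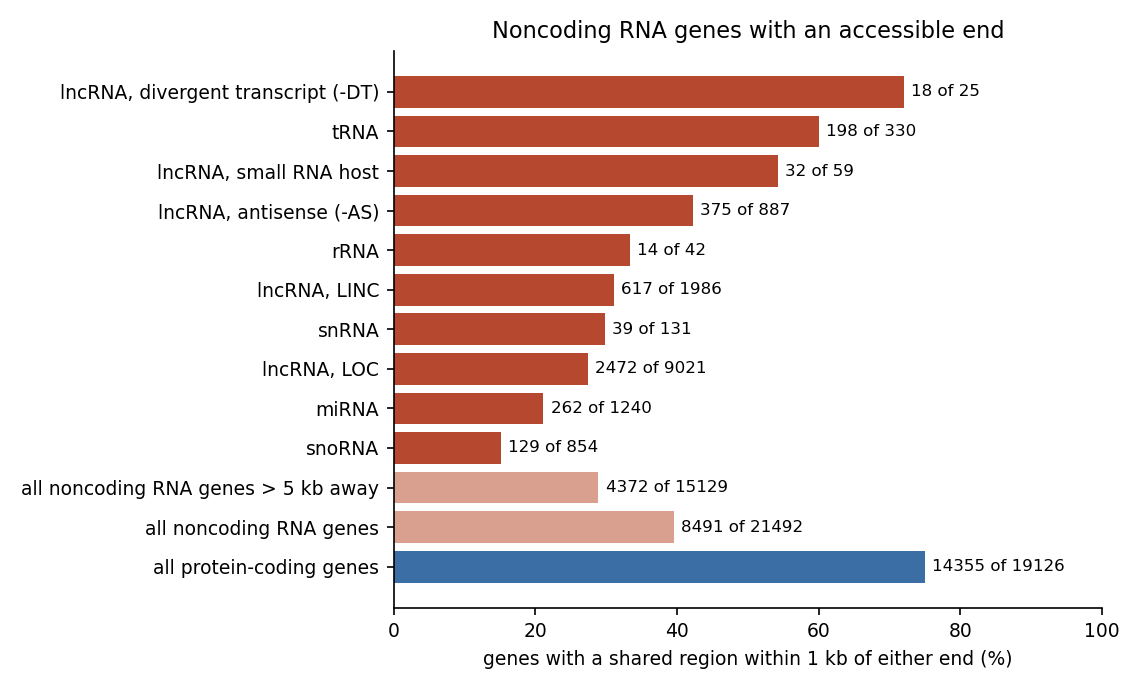
Share (%) of autosomal genes with a shared region within 1 kb of either end, by gene type. Dark bars are noncoding RNA genes with both ends more than 5 kb from protein-coding gene ends, pale bars all noncoding genes with and without that limit, and the blue bar all protein-coding genes; tRNA genes reach 60.0% and snoRNA genes 15.1%, against 75.1% for protein-coding genes.

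The strongest region by mean within-list percentile of fold was at the start of LOC105375456 (chr7:112391106-112392424), with folds of 17.3 (R1) and 18.1 (R2) and pileups of 672 and 745. Its summits lay 367 and 368 bp upstream of the gene start, and the nearest protein-coding gene end, of IFRD1, was 30750 bp away. The region at LOC124903071 (chr12:60266138-60266926) had folds of 17.3 and 17.9 with a pileup of 243 and 263, in a stretch where the nearest protein-coding gene end was 453520 bp away. The region at the other end of LINC01792 (chr2:200712879-200714004) followed with folds of 16.7 and 17.2. All 15 strongest regions lay at lncRNA genes, 13 of them outside any protein-coding gene body. The other 12 were at STPG2-AS1, LINC02366, LINC00933, LINC01392, LINC00652 with LCDR, LINC01322, LOC105377507, LOC107984621, LOC105373209, LOC101929018, ENTPD1-AS1 and LOC101929566. Among them R1 fold ran from 14.6 to 16.8 and R2 fold from 14.2 to 16.9.

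Pileup varied widely among these 15 regions, which were chosen by fold. The strongest, at LOC105375456, also had the highest pileup of them. ENTPD1-AS1 (chr10:96089404-96090627) and LOC101929566 (chr16:2867836-2868858) had pileups of 510 and 508 in R1 and of 512 and 510 in R2. LOC107984621 (chr13:89400644-89402060) had 148 in R1 and 130 in R2, with folds of 16.0 and 14.5, over a background of 8.31 and 8.03 that was near the lowest in each list. Its nearest protein-coding gene end, of SLITRK5, was 1721028 bp away.

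The widest regions were not strong ones. TANAR (chr2:240976285-240981785), inside the body of CROCC2, had the widest, at 5501 bp, with folds of 4.86 (R1) and 4.57 (R2). The region over WNT5A-AS1 (chr3:55484748-55488879, 4132 bp) lay inside WNT5A, which encodes a Wnt ligand. It joined 2 peaks of each list, and its strongest peaks had summits 3497 bp apart in R1 and R2. The others were at MIR7845 inside KLF7 (4085 bp), LOC105376380 (3763 bp) and LOC124904237 inside TGIF1 (3320 bp). The folds of these 5 regions ran in R1 from 3.14 to 4.86 and in R2 from 2.45 to 4.57, all under the list medians.

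Several genes had separate open regions at both ends. LOC124909457, which lies within NCEH1, had 4, the most of any noncoding gene. One of them (chr3:172666339-172667550) had folds of 12.8 and 12.5, and the other 3 ranged in R1 from 2.60 to 3.64 and in R2 from 2.19 to 3.402. ARHGAP29-AS1 had 2 regions at its start, with folds of 5.03 and 3.99 in R1, and a stronger one at its other end (chr1:94335419-94336463) with folds of 11.1 (R1) and 10.6 (R2). The stronger region lay outside the body of ARHGAP29, the gene that overlapped both regions at the start.

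Where RefSeq gave the strand, regions at the start of the gene were wider and stronger than those at its other end. There were 1844 regions at a start, 1153 at the other end and 364 within reach of both, while 1939 lay at genes without a strand in the table used. Regions at starts had a median width of 998 bp, folds of 6.46 and 6.28 and pileups of 123.5 and 117. Regions at the other end had 829 bp, 5.74 and 5.46, and 88 and 81. Assigned by the mean of both summits, 1708 of 2634 regions with a summit within 1 kb lay nearer the start (64.8%).

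The same preference appeared gene by gene, and it was less marked than at protein-coding genes. Among 5533 lncRNA genes of known strand, longer than 4 kb and away from protein-coding gene ends, 24.5% had a shared region at the start, 12.8% at the other end and 5.49% at both. Among 6467 protein-coding genes of the same kind the shares were 67.7%, 15.9% and 11.9%. The kinds of gene differed less at their other ends than at their starts. Among lncRNA genes named as hosts of small RNAs, 66.7% were open at the start and 15.4% at the other end (39 genes).

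Summits of lncRNA regions gathered at the annotated start, more loosely than at protein-coding genes. Of 2015 such summits, the median lay 6 bp downstream of the start in R1 and 18 bp in R2, and 42.0% in R1 and 42.9% in R2 lay within 250 bp. At 10403 protein-coding starts, 57.4% and 59.8% lay within 250 bp, with medians 41 and 81 bp downstream. At lncRNA starts 49.7% of R1 summits and 48.4% of R2 summits were upstream, against 44.3% and 37.4% at protein-coding starts. The fullest 100 bp bin at lncRNA starts was the one just upstream of the start in both lists, with 11.1% and 10.4% of the summits. At protein-coding starts it lay downstream in both, with 15.6% in R1 and 19.5% in R2. The starts were assigned differently. A lncRNA region was measured from the start of the noncoding gene with the nearest end, either start or other end. A protein-coding region was measured from the gene start nearest its summits, which shortens those distances. The looser spread at lncRNA starts is therefore not from a matched comparison.

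**Figure D3:**
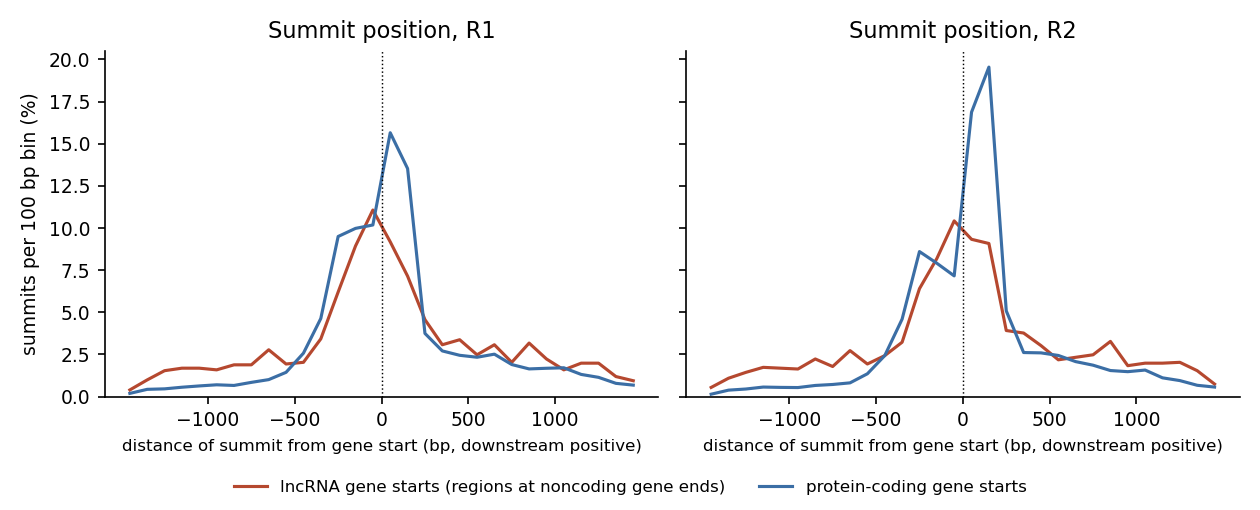
Distance of peak summits from the annotated gene start (bp, downstream positive) for lncRNA genes with a region at the start and for protein-coding genes, in R1 (left) and R2 (right), as the share of summits per 100 bp bin (%). The lncRNA summits peak just upstream of the start, at 11.1% in R1 and 10.4% in R2, and have heavier flanks. Protein-coding summits peak downstream, at 15.6% and 19.5%, and were measured from the gene start nearest the summits, unlike the lncRNA ones.

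The sequence at these starts differed from that of protein-coding promoters. RefSeq promoter windows of 300 bases were compared where both summits of a region fell inside. The 468 lncRNA windows under a region at a noncoding gene end had a median of 5 CpG and a G+C content of 50.3%. The 2603 protein-coding windows under summits had 26 CpG and 64.7%, and the 6326 lncRNA windows without a peak in either list had 3 CpG and 45.0%. Only 120 of the 468 (25.6%) held 15 or more CpG, against 84.9% of the protein-coding windows and 6.72% of the lncRNA windows without a peak. All 26246 windows on autosomes had 48.9%.

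The letters TGANTCA, the core bound by AP-1 (the FOS and JUN family), were 1 of 11 motifs searched on both strands. They were in 28.6% of the 468 windows, against 10.6% of lncRNA windows without a peak, 5.53% of protein-coding windows with summits and 7.73% of all windows. The SP/KLF letters (GGGCGG), common in CpG islands, were in 26.3%, against 10.4%, 66.5% and 44.7% in the same order. The nearest AP-1 match lay at a median of 44 bp from the summit in R1 and 51.5 bp in R2. The short letters CCNNNAGG, which resemble part of the CTCF motif but are too loose to mark a site, lay as near, at 53.5 and 48.5 bp, and the 300-base windows themselves limit these distances. Letters of TEAD (CATTCC), factors of the Hippo pathway, were in 22.2% of the windows, against 18.6%, 11.03% and 14.04% in the same order. The TATA letters (TATAAA) were in 12.2%, against 20.3%, 5.03% and 12.0%. The protein-coding windows, 84.9% of which held 15 or more CpG, were not split by CpG. The contrasts with them are therefore not matched for CpG.

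Splitting at 15 CpG, a limit chosen with the data in view, gave 2 kinds of window that differed in their AP-1 letters. Of the 348 windows with fewer than 15 CpG, 37.6% held the AP-1 letters, against 11.1% of windows equally poor in CpG without a peak. Of the 120 with 15 or more, 2.5% did, against 3.06%. The SP/KLF letters ran the other way, in 11.2% of the poor and 70.0% of the rich windows under summits, against 7.02% and 57.9% of those without a peak. These letters hold a CpG themselves, so their rise from poor to rich windows is partly built into the split. The letters of ETS (CCGGAAGT) and NRF1 (GCGCATGC), found at many housekeeping promoters, were in 10 (2.14%) and 11 (2.35%) of the 468 windows, against 0.680% and 0.917% of the windows without a peak. Split by CpG, NRF1 letters were in 0.862% of the poor windows, against 0.627%, and in 6.67% of the rich ones, against 4.94%. CCAAT, the letters of NFY, were in 34.0% of the 468, against 37.0% without a peak. The split gave 34.2% against 38.4% in poor windows and 33.3% against 18.1% in rich ones. Shares over all 468 windows, here and above, are not matched for CpG with those without a peak. CRE (TGACGTCA), whose letters hold no AP-1 match, was in 7 windows (1.496%), against 0.348% without a peak. The E-box (CACGTG) was in 6.41%, against 4.22%, YY1 (AAGATGG) in 4.27%, against 5.66%, and CCNNNAGG in 54.5%, against 42.6%.

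Regions over CpG-rich starts were the wider and higher ones. Their median width was 1150 bp, with folds of 8.17 (R1) and 8.17 (R2) and pileups of 234.5 and 228. Over the CpG-poor starts the width was 867 bp, the folds 6.72 and 6.52 and the pileups 115.5 and 108. Among the poor ones, the 131 with AP-1 letters had median folds of 7.04 and 7.08 and pileups of 141 and 131. The 217 without them had 6.30 and 6.14, and 101 and 97. A match of letters does not show binding, and no factor was measured here.

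**Figure D4:**
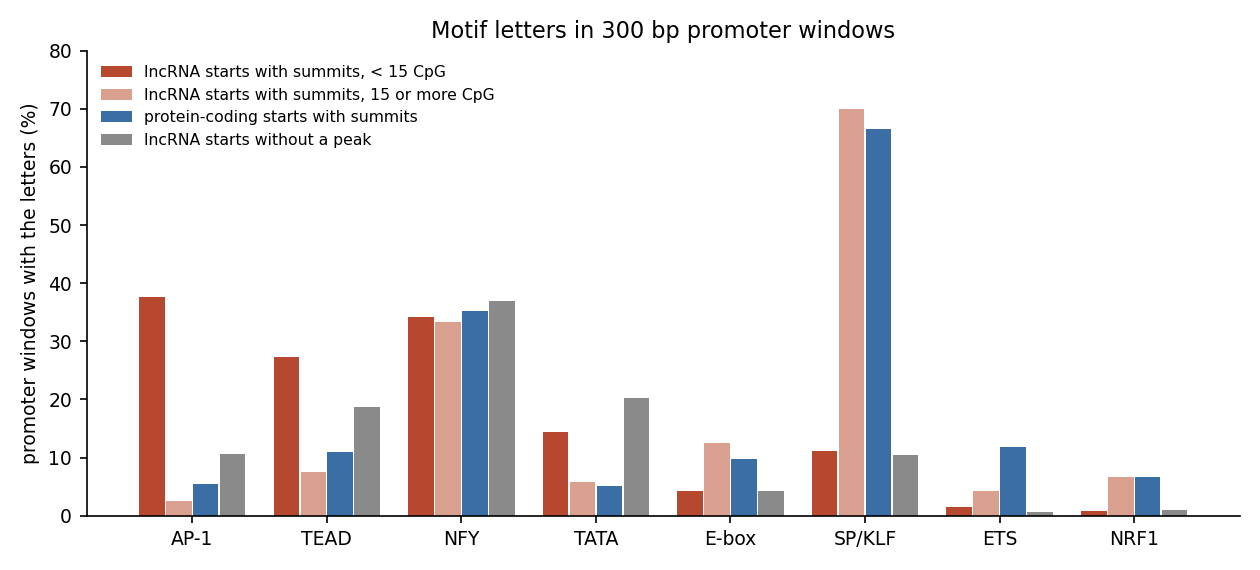
Share (%) of 300-base promoter windows that hold the letters of each motif on either strand, for lncRNA starts under both summits of a region split at 15 CpG (red and pale red, 348 and 120 windows), protein-coding starts under summits (blue, 2603) and lncRNA starts without a peak (grey, 6326). AP-1 letters are in 37.6% of the CpG-poor lncRNA windows and SP/KLF letters in 70.0% of the CpG-rich ones.

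Genes of small structured RNAs were open almost throughout. Gene lists were counted against the background of 39.5% for all noncoding genes. Of 24 spliceosomal snRNA genes, 23 had a shared region at an end, 10 of them a region of the kind described here, and only RNU2-1 had no peak in either list. At the U1 gene RNU1-1 (chr1:16512990-16514891) the folds were 8.74 and 8.25 and the pileups 818 in R1 and 722 in R2. The U5 gene RNU5A-1 (chr15:65295601-65296801) had folds of 8.86 and 8.397 and pileups of 470 and 414. The minor spliceosome gene RNU6ATAC and the U6 gene RNU6-9 had the highest folds of the list, 11.5 and 11.8 in R1 and 10.7 and 10.3 in R2, in regions within 5 kb of a protein-coding gene end. RNU2-1, RNU1 and 5S genes have near-identical copies, and how reads from such copies were placed is not given in the sources used here, so their values are uncertain. Of the 127 snRNA genes outside the list, which include many copies with a LOC number, 29 had a region (22.8%).

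Genes of other small RNAs that work in protein complexes were open to the same degree, 17 of 18, 10 of them with a region of the kind described here. The vault RNA genes are among them, with VTRNA1-3 (chr5:140725641-140726667) at folds of 12.5 and 12.3 and VTRNA1-2 (chr5:140718560-140719575) at 8.36 and 8.17. All 4 Y RNA genes had a region, RNY5 (chr7:148940651-148942413) the strongest with 7.99 and 8.49. BCYRN1, made by RNA polymerase III, had 9.58 and 9.50, and RN7SL1, a gene of the signal recognition particle RNA, had 7.35 and 7.06. SNORD3A, a gene of the U3 snoRNA, was the 1 gene without a peak.

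tRNA genes had regions at 291 of 439 loci (66.3%), and the share depended on the isotype and chromosome. All 9 histidine genes, 19 of 20 proline genes, 24 of 26 arginine genes and 23 of 26 serine genes had one. Of 29 cysteine genes 8 had one (27.6%), and on chromosome 7 it was 4 of 22 genes. The large tRNA cluster lies on chromosome 6, where 109 of 155 had a region. The best tRNA region was at TRA-AGC3-1 (chr6:28606438-28607552), an alanine gene, with folds of 14.03 and 13.6 and pileups of 249 and 221. Over all 148 regions nearest to a tRNA gene, fold ran in R1 from 2.59 to 14.03 and in R2 from 2.17 to 14.5, and 6.08% lay in a protein-coding gene body, against 34.2% of all members.

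5S rRNA genes showed the opposite balance of pileup and fold. Of 17 RNA5S genes, which stand in a tandem array on chromosome 1, 16 had a region and the other had a peak in R2 only. The 14 regions nearest to rRNA genes had median pileups of 313.5 in R1 and 359.5 in R2, against 334 and 301 at snRNA genes. Their median folds were 2.05 and 2.11 and none reached the list median, over a median background of 163 in R1 and 180.3 in R2. RNA5S12 (chr1:228634884-228635905) had the best of them, with folds of 3.65 and 3.16 and pileups of 670 and 628. The background around this repeated array was itself high, and how reads from repeats were placed is not given in the sources used here.

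snoRNA genes had a shared region at an end less often than miRNA or tRNA genes, which are as short. The share was also under that of lncRNA genes, which offer more DNA to search. Of the clustered C/D box genes, 0 of 48 SNORD115 genes, 0 of 30 SNORD116 genes and 0 of 9 SNORD113 genes had a shared region, and 7 of 31 SNORD114 genes had one. These clusters lie in imprinted domains and are processed from long host transcripts. Outside them, 79 of 236 SNORD genes (33.5%) and 47 of 169 SNORA genes (27.8%) had one, against 29.3% of all miRNA genes. The lower share of the whole class therefore does not hold for these named genes. The listed host genes, which are longer (median 4446 bp), were open more often. Of 27 snoRNA host genes, 26 had a region, with median folds of 7.43 and 7.35. Only 9 had a region of the kind described here. SNHG14, the host of SNORD115 and SNORD116, had none. EPB41L4A-AS1 (chr5:112160322-112161623) led them with folds of 13.2 and 12.8, followed among regions of this kind by SNHG30 (chr17:35567574-35568912) with 10.2 and 9.27 and DANCR (chr4:52711845-52713362) with 8.80 and 10.9.

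Listed miRNA host genes had a shared region more often than miRNA genes as a whole. Of 35 miRNA host genes, 25 had one (71.4%), against 525 of all 1793 miRNA genes (29.3%). Of the hosts, 18 had a region of the kind described here. The list does not hold the hosts of all miRNA genes, and its median gene length was 19176 bp, against 80 bp. The 2 sets are therefore not matched. Members lay near 252 miRNA genes in 275 pairs of region and gene. The hairpin itself was inside the region in 84 pairs (30.5%), the median distance from hairpin to summit was 711 bp, and 62.2% of the pairs lay in a protein-coding gene body. In 122 pairs (44.4%) the region did not hold the whole hairpin and lay in a protein-coding gene body.

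Among host genes, DNM3OS, the antisense transcript that carries MIR199A2 and MIR214, had a region (chr1:172136008-172136658) with folds of 12.1 and 10.7. The region at MIR199A2 (chr1:172143182-172144035) had 10.8 and 10.1, with pileups of 145 and 128. It also lies within 1 kb of the opposite end of DNM3OS, so both regions are at ends of the host. The region of MIR155 (chr21:25573037-25574394), with folds of 9.35 and 9.20, is also the one counted for its host MIR155HG. MIR133A1 and its host MIR133A1HG likewise shared one (chr18:21825872-21826973), with 12.5 and 11.5. MIR17HG, host of the miR-17 to miR-92a cluster, had a region with 7.55 and 7.06, whereas MIR17, MIR18A, MIR19A, MIR20A and MIR92A1 had no peak within 1 kb.

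The 3 lists of miRNA genes by cell type had similar shares. Of 28 mesenchymal and growth-linked miRNA genes 12 had a shared region (42.9%), as did 12 of 28 genes known from other cell types (42.9%), against 5 of 16 epithelial ones (31.2%). Of these, 7, 9 and 2 in the same order had a region of the kind described here. The background was 29.3% for all miRNA genes and 39.5% for all noncoding genes. The median folds of the genes with a region were 3.19 and 3.0, 3.58 and 2.84, and 3.33 and 3.04, against 5.54 and 5.42 over all 525 miRNA genes with one and 6.84 and 6.78 over all noncoding genes with one. MIR9-1 (chr1:156421275-156422561) had 7.05 and 7.14, and MIR128-1 (chr2:135664627-135665297) had 6.38 and 7.05. MIR193B (chr16:14300744-14302993) had 6.87 and 5.85. MIR183 and MIR96 shared 1 region (chr7:129773498-129774489) with 3.33 and 3.04, while MIR182 of the same cluster had none.

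The MIR302A to MIR302D genes, with the shared seed shown above, and MIR367 all drew their region from 1 narrow peak (chr4:112648656-112649019) inside the body of LARP7. It had folds of 3.58 and 2.84 and pileups of 31 and 24, against member medians of 105 and 99, and no hairpin lay inside it. It accounts for 5 of the 12 genes counted for other cell types. MIR302CHG, the host gene of the cluster, had no peak in either list. MIR204, MIR211 and MIR184, which are known from pigment epithelium, had none either, nor had MIR21, MIR31, MIR143 and MIR205. Other genes of the same lists went the other way. MIR141 (5.90 and 6.35) and MIR200A (2.39 and 2.57) of the epithelial list had a region, as did MIR145, MIR29A, MIR125B1 and MIR365A of the mesenchymal list. In all, 11 of 16 epithelial and 14 of 28 mesenchymal and growth-linked genes had no peak in either list.

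**Figure D5:**
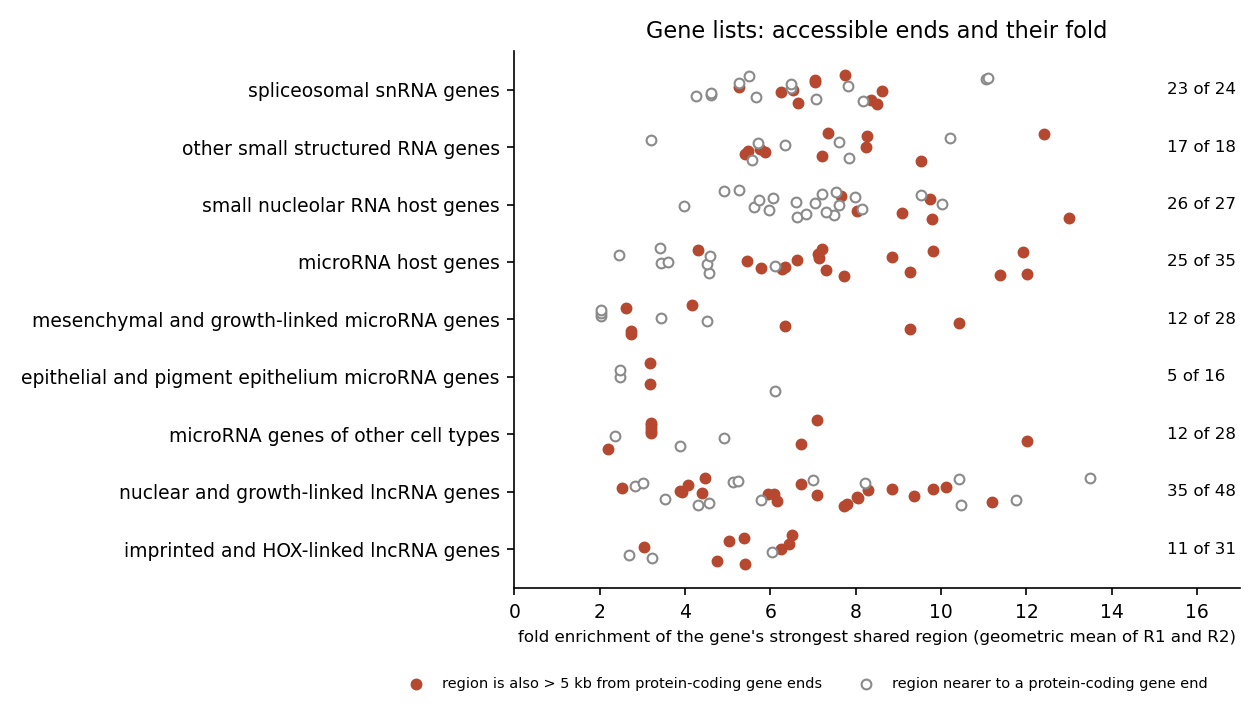
Fold of the strongest shared region at each gene of the 9 lists (geometric mean of R1 and R2). Filled points are regions more than 5 kb from protein-coding gene ends and open points regions nearer to one; the counts at the right are genes with a region of the genes found on autosomes, and the 3 miRNA lists hold most of the points under a fold of 4.

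Of 48 lncRNA genes known for nuclear roles or growth, 35 had a shared region (72.9%), 21 of them a region of the kind described here. DLEU1 (chr13:50528895-50529922), a lncRNA gene often lost in leukaemia, had folds of 11.1 and 11.3, and NORAD (chr20:36049506-36051475), which binds Pumilio proteins, had 10.1 and 10.1. UCA1 had the highest fold of the list in R1 (14.5) and in R2 (12.5), and HAND2-AS1 had 12.3 and 11.2, both in regions that touch a protein-coding gene end. NEAT1 and MALAT1, neighbours that make abundant nuclear RNAs, had low folds over high pileups. NEAT1 (chr11:65421087-65423415) had 2.38 and 2.69 with pileups of 481 and 534, and MALAT1 (chr11:65506724-65508658) had 4.09 and 3.70 with 442 and 402. NORAD, NEAT1 and MALAT1 were chosen after their values were seen. CARMN and MIR9-2HG were counted in this list and among the miRNA hosts. CASC8 and CASC19 had no peak in either list.

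Imprinted and HOX-linked lncRNA genes were open less often, 11 of 31 (35.5%), near the background of 39.5%. Of the imprinted genes, PEG13 (chr8:140098657-140100969) had folds of 6.65 and 6.37, KCNQ1OT1 (chr11:2698879-2700783) 5.69 and 7.28 and HYMAI (chr6:144006420-144008649) 7.03 and 5.54. All 3 lie within the body of a protein-coding gene, TRAPPC9, KCNQ1 and PLAGL1. H19 (4.47 and 5.03) and MEG3 (5.37 and 4.70), chosen after their values were seen, had regions too, and AIRN had none. Of the HOX-linked genes only HOTTIP, HOXA11-AS and HOXB-AS1 had a shared region, and all 3 lay within 5 kb of a protein-coding gene end. HOTAIR, HAGLR and HOTAIRM1 had no peak, HOXC-AS2, HOXC-AS3 and HOXD-AS2 had one in R1 only, and HOXA10-AS had one in R2 only.

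The members lay at a median of 33310.5 bp from the nearest protein-coding gene end, and 1153 of them (21.8%) were over 100 kb away. The other regions more than 5 kb from one lay at a median of 40884 bp, and 25.9% were over 100 kb away. Of the 5300, 2567 (48.4%) covered the noncoding gene end itself. A protein-coding gene body overlapped 1812 of them (34.2%), against 89.2% of regions at protein-coding gene ends, 54.5% of the other regions more than 5 kb from one and 58.5% of all shared regions. Inside gene bodies the median folds were 5.85 and 5.67 and outside 6.27 and 6.06. By chromosome, members made up from 2.43% of shared regions on chromosome 19, where noncoding genes are 32.4% of these 2 kinds of gene, to 6.20% on chromosome 21, where they are 61.8%.

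At the limits of the rule the values ran on. The regions at LOC105379244 and ROR1-AS1, just inside at 1000 bp from the gene end, had folds of 11.8 and 8.65 in R1, against 8.06 and 7.68 at LOC105370743 and LOC105375074, just outside at 1001 bp. In R2 the folds were 9.96 and 9.22, against 6.74 and 8.46. GS1-24F4.2, 5002 bp from a protein-coding gene end, had 10.9 in R1 and 11.3 in R2, against 13.9 and 13.7 at LOC105375422, just outside at 5000 bp. LINC02709, at 5014 bp, had 5.40 and 4.95, against 8.33 and 8.02 at RNU1-3, at 4987 bp.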

How the data were processed

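ATAC-seq of wild-type hTERT-RPE1 cells was read from 2 merged peak lists, R1 and R2, each pooled over 3 libraries. Coordinates are on hg38, per the submitters' processing notes. Not given in the sources used here were the aligner, the caller, any settings, the treatment of repeated sequence and any shift for Tn5. For each peak the authors deposited the fold over background, which is a ratio, the −log10 of the p-value and of the q-value, the position of the summit and a display score, which was not used. These values were used within a list only.

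Overlapping R1 and R2 peaks (by at least 1 bp) were joined, and the strongest peak of each list by fold gave a region its values. Pileup and background were recovered from the deposited fold and −log10 p-value, treating the p-value as a Poisson tail and fold as the ratio of both after adding 1 to each. This relation is inferred from the values; a whole pileup met the deposited −log10 p-value within 0.001 for 99.999% of R1 and 99.996% of R2 peaks. The lowest background was 7.93 in R1 and 7.79 in R2. The depth of single libraries is unknown here.

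Genes, promoter windows and mature miRNAs came from RefSeq tables of assembly GRCh38.p14. Immune receptor gene segments and pseudogenes were not counted as noncoding RNA genes. Strand was given for 12606 of 21492 noncoding genes. Motifs were searched as plain letters on both strands. Intervals in the sensitivity comparison are exact (Clopper-Pearson) at the 95% level and cover counting error only.

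The members and gene lists were chosen with earlier results of these data known. The genes named were the 15 strongest and the 5 widest members, the 5 genes with the most members, the best member of each gene type, for each list up to 4 genes with a region, the first 2 in alphabetical order without a peak and the first with a peak in 1 list only, and the regions nearest each limit. Others are named as chosen after their values were seen, complete a count of 5 or fewer, or are further members of those lists, and not all genes the rule takes are printed. No test was run, since there is 1 list per set. The joining, member and pileup steps were tested on simulated intervals and peaks. The tools were scipy 1.17.1, pandas 2.3.3, numpy 2.4.6, matplotlib 3.10.9 and Python 3.11.15.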

Additional observations from a re-analysis of the deposited data

Results flagged for a closer look

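The X chromosome lies outside the rule used above and was looked at as data outside the main measurement. There, 83 of 2838 shared regions (2.92%) lay within 1 kb of a noncoding gene end and more than 5 kb from any protein-coding gene end, against 4.43% on the autosomes; the same rule of position was applied, so these are a description. Their median width was 921 bp, with median folds of 6.38 (R1) and 5.79 (R2) and median pileups of 106 and 99.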

How the results depend on the processing

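Of the 67 recomputed values, 38 stayed within the spread allowed to them (counts within 1.5 times, shares within the exact 95% binomial interval of the main value, the median width within the SD of 7.78 bp between both lists' peak widths at members), and 29 moved. The number of members stayed within 1.5 times, from 3972 to 7682. Requiring 50% of the shorter peak to overlap, adding the X chromosome, or counting immune receptor gene segments, an alternative chosen after seeing the data, moved none of these values. With a 500 bp window the members were 3.32% of shared regions, the median width 989 bp and the shares at or above the list median fold 65.5% (R1) and 62.7% (R2); with 2 kb these were 6.42%, 883 bp, 59.9% and 56.4%. A distance of 2 kb from protein-coding gene ends gave 4.98%, 60.9% and 57.6%, and 10 kb gave 3.76%. Keeping peaks with a −log10 q of at least 5 gave a width of 974 bp and shares of 68.4% and 64.9%; with 10 they were 4.64%, 1034 bp, 78.4% and 74.7%, and 67.7% of summits were nearer the start. With both summits within the window the members were 3.37% with a width of 907 bp, and with lncRNA genes only 3.99%. The share of noncoding genes with a gene-end region was 33.7% at 500 bp, 47.9% at 2 kb, 37.3% and 34.5% at −log10 q of at least 5 and 10, 41.3% for lncRNA genes and 28.9% for genes away from protein-coding gene ends. The stricter q-values leave out weak peaks by construction, which raises the shares of strong ones; for the other moves the cause was not tested.

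No paired analysis was possible because each set is 1 merged list, and no value without a single library was computed for the same reason. Gene ends in RefSeq are those of the whole gene interval, so alternative starts inside a gene were not counted, and strand was missing for 1939 of the 5300 members. Peaks at repeated genes depend on how reads were placed.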
